A study of Solanum lycopersicum with 24 samples.

Results

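The response of a drought-tolerant tomato genotype (Solanum lycopersicum) to water stress was measured on 6 of the 24 arrays of the series, namely the 3 arrays of stressed plants and the 3 of control plants whose titles name Tomato Drought Tolerant samples. The series set susceptible and tolerant plants side by side under drought and under heat, with leaves taken at the flowering stage and 3 arrays in each group. Stressed plants of the tolerant genotype went without water for 7 days, and their controls grew in a greenhouse without stress. The 6 further arrays used for comparison are of the susceptible genotype, as controls and after 7 days without water. The labels give these plants as Drought Tolerant Genotype and the others as susceptible, without a cultivar name, an age in days or a measure of leaf water status. Separate plants are not stated for the 3 samples of a group, and p-values therefore cover no more than the variation among these 6 samples, part of which may be technical. Beyond that, the small number of arrays limits the precision of all values. All 10038 probe sets left after removal of 108 AFFX and 63 reporter control probe sets were tested.

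When a leaf loses water, the hormone abscisic acid builds up, closes the stomata and switches on genes through bZIP factors that bind abscisic acid response elements. Many of their targets encode dehydrins and other late embryogenesis abundant (LEA) proteins, small hydrophilic proteins that protect cells as they dry. Growth, which needs new cell wall, cell division and chloroplast protein, slows in parallel, and sugars and amino acids are rerouted into solutes that hold water.

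Signals are log2 values per probe set, so a difference of 1 is a 2-fold change, and differences are given as stressed minus control with their standard error over 3 against 3 arrays. Replicate arrays correlated at 0.952 to 0.963 in control and 0.919 to 0.941 in stressed plants, and the median SD of a probe set was 0.30 and 0.39, against 0.09 and 0.07 in the susceptible groups. The susceptible arrays therefore did not enter the fit of the tolerant response. Probe sets for non-tomato reporter genes mark background, and their 95th percentile lay between 5.54 and 6.78 on the 6 arrays. Where at least 2 arrays of a gene's dimmer group lay within that range, its difference is printed as a bound ("at least" or "or lower"), computed with the dim arrays raised to that percentile. Where only 1 array of that group did, the fitted difference is printed, and its size is less certain. None of the 63 reporter probe sets was called by limma, 7 had an unadjusted p under 0.05, and their median difference was 0.27. The 3 control arrays had a larger 3′ minus 5′ signal gap over the gapdh, actin and ef1a control probe sets, a measure of RNA degradation, with 2.16, 3.91 and 2.61 against 1.60, 1.74 and 1.59 in stressed plants. The bioB spike-in also differed, with 10.85, 10.72 and 11.08 in controls and 11.35, 11.38 and 11.71 in stressed plants. Neither measure overlapped between the groups, and their part in the results was not tested, except that counts with RNA integrity as a covariate are given beside each gene list. In whole leaves, fewer cells of a type and less RNA per cell cannot be told apart.

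A large share of the probe sets differed between stressed and control plants, in both directions. With limma, 3125 of 10038 probe sets (31.1%) were called at an adjusted p under 0.05, 1581 higher (15.8%) and 1544 lower (15.4%) in stressed plants. Control and stressed arrays did not overlap for 4861 probe sets (48.4%). Large decreases outnumbered large increases, since 209 called probe sets were lower by at least 3 on the log2 scale and 51 were higher by as much. The same counts were 210 and 50 after repeated quantile normalization and 202 and 56 with arrays centred on their medians. The median difference over all probe sets was 0.11. Of the calls, 523 rested on a group near background and are bounds, and for 135 both groups lay near background, so that no difference is given. With RNA integrity as a covariate, 568 probe sets were called, and without control replicate 2, which had the largest integrity gap, 2042 were.

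**Figure D1:**
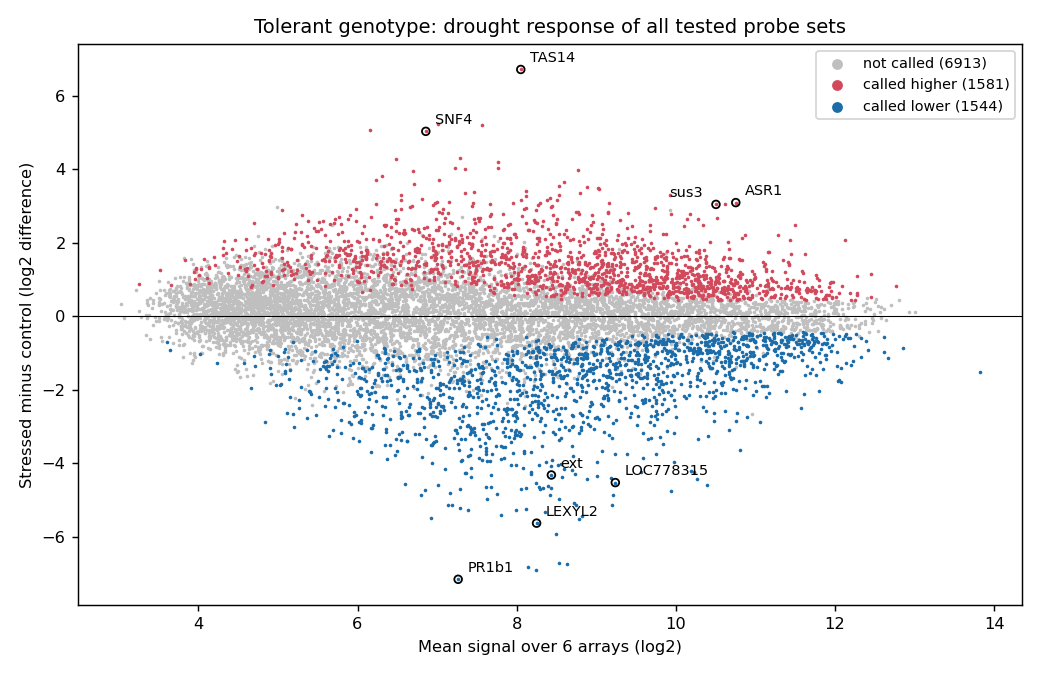
Drought response of the tolerant genotype for all 10038 tested probe sets. The horizontal axis is the mean log2 signal over 6 arrays and the vertical axis the log2 difference of stressed minus control plants; red points were called higher (1581), blue points lower (1544), and grey points were not called. The deepest decreases reached further from 0 than most increases, with PR1b1 lowest and TAS14 highest among the named genes.

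Names were available for 409 genes (457 probe sets) from the authors' deposited drought and heat tables. Each table had selected probe sets for a response that differed between genotypes. The drought table did so on these same samples and the heat table on the heat samples. Among the 409 genes, 109 (26.7%) were called higher and 137 (33.5%) lower, with a median difference of -0.18. These shares do not describe the array as a whole. Each gene is given by its probe set with the smallest p. Among the 409, 294 (71.9%) had control and stressed arrays that did not overlap, which is the background for the statements on overlap that follow. The shares of 26.7% higher and 33.5% lower are likewise the background for the counts of calls in each list.

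**Figure D2:**
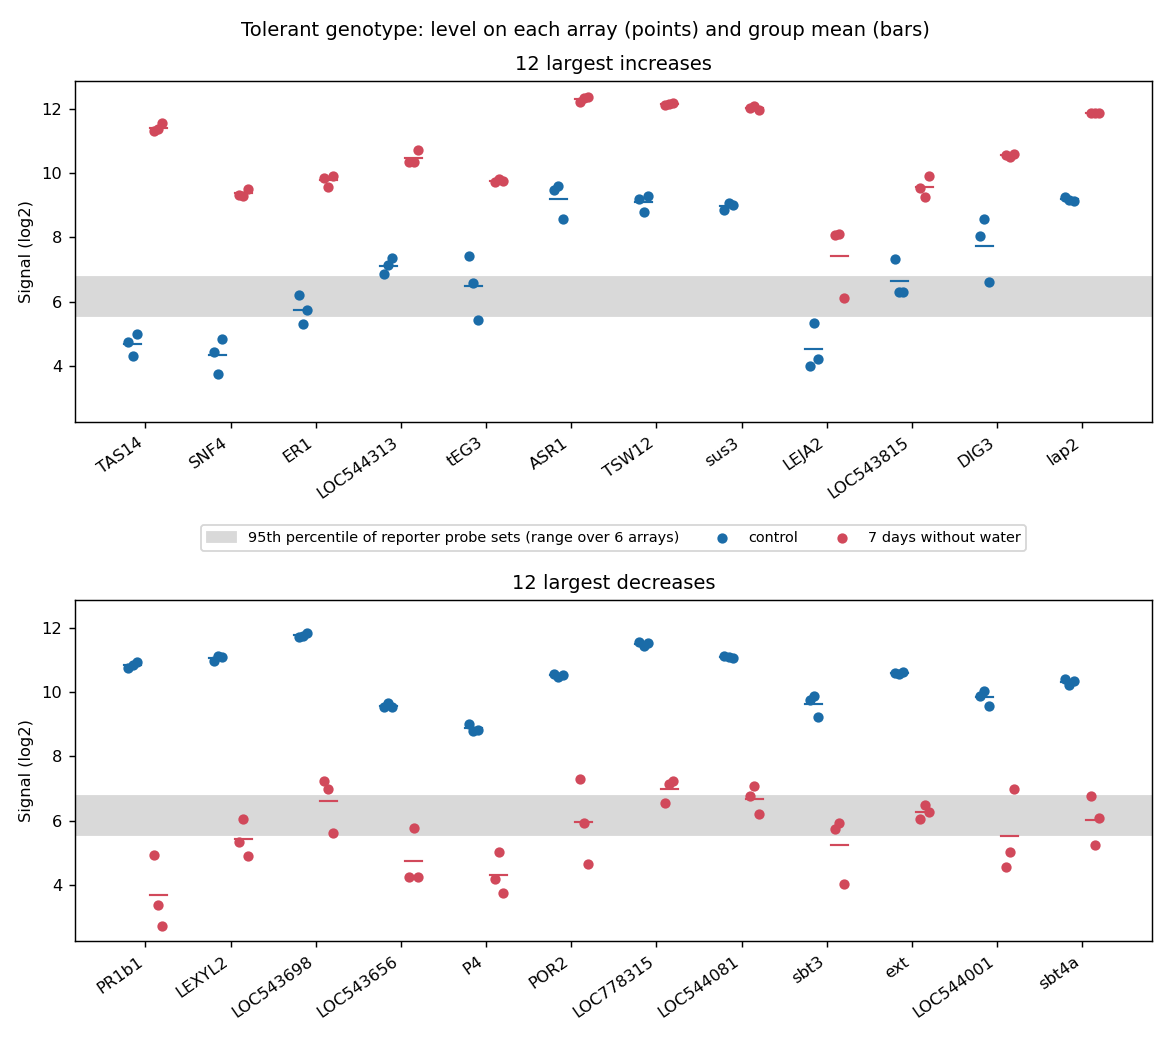
Log2 signal on each array (points) and group mean (short bars) for the 12 largest increases and the 12 largest decreases among named genes whose groups do not overlap. The grey band is the range of the 95th percentile of reporter probe sets over the 6 arrays. TAS14 and SNF4 lay below the band in all 3 control arrays, and PR1b1 and P4 lay below it in all 3 stressed arrays.

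On the probe sets chosen here, genes of desiccation protection had the highest median difference of the 23 lists. All 3 named genes of the dehydrin, LEA and ASR list were called higher, with a median difference of 3.10, against 15.8% of all probe sets and 26.7% of the named genes called higher. TAS14, a dehydrin induced by abscisic acid and salt in tomato, read 4.74, 4.32 and 5.01 in control plants and 11.31, 11.37 and 11.55 in stressed plants. It went from background on every control array to well above it on every stressed array, a rise of at least 5.61 (48.9-fold, adjusted p = 0.000348). ASR1 read 9.47, 9.59 and 8.56 in control plants and 12.20, 12.33 and 12.38 in stressed plants. This gene of the abscisic acid, stress and ripening family encodes a small protein that binds DNA and zinc, and it rose by 3.10 ± 0.30 (adjusted p = 0.00197). A further probe set that carries the ASR1 symbol had group means of 10.46 and 10.39 and was not called, so the probe sets of this gene disagree. The list median is the value of the called ASR1 probe set. With the other one in its place, ER5 would set the median at 2.00, below the 2.26 of the abscisic acid list. ER5, an ethylene-responsive LEA-like gene, read 7.63, 7.99 and 6.96 in control plants and 9.91, 9.87 and 8.80 in stressed plants. Its groups did not overlap and it rose by 2.00 ± 0.42 (adjusted p = 0.0182), although leaving out control replicate 1 or 3 or stressed replicate 1 or 2 gave adjusted p values of 0.0513 to 0.0568. When RNA integrity was a covariate, 2 of the 3 genes were called higher.

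On these probe sets all 3 genes responded more strongly upward in tolerant than in susceptible plants. The difference between the responses of both genotypes was tested across all 12 drought arrays, where 3760 of 10038 probe sets (37.5%) were called. Of these, 1908 had the higher response in tolerant plants (19.0%) and 1852 the lower (18.4%). This fit shared 1 spread between the genotypes although the susceptible replicates varied less, so its p-values may be too small. With 1 weight per genotype, 3413 probe sets were called, 3114 of them among the 3760. Among the named genes, 71.6% were called in the fit without weights. The deposited tables had selected these genes for such a difference under drought or heat. The susceptible response of TAS14 was 4.03, and the tolerant response was larger by at least 1.58 (adjusted p = 1.80e-05). That of ASR1 was 0.20, which leaves a difference of 2.89 (adjusted p = 0.000347). For ER5 it was -0.70, and the responses differed by 2.70 (adjusted p = 0.000989).

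Abscisic acid signalling genes rose while the measured gene of the committed synthesis step did not pass the test. Of the 4 named genes 3 were called higher, with a median difference of 2.26, against 26.7% of all named genes called higher. LeAREB read 7.08, 6.53 and 7.35 in control plants and 9.56, 9.51 and 9.53 in stressed plants. LeAREB encodes a bZIP factor of the family that binds abscisic acid response elements, its groups did not overlap, and it rose by 2.55 ± 0.24 (adjusted p = 0.00176). DIG3, a protein phosphatase 2C of the family that holds negative regulators of abscisic acid signalling, read 8.04, 8.59 and 6.61 in controls and 10.56, 10.51 and 10.61 under stress. The 3 control arrays of DIG3 spread over about 2 units and stayed below every stressed array, and the rise was 2.82 ± 0.51 (adjusted p = 0.0116). CrtR-b2, a beta-carotene hydroxylase that makes xanthophyll precursors of abscisic acid, read 6.25, 5.67 and 6.92 in controls and 7.90, 7.90 and 8.97 under stress, a rise of 1.98 ± 0.45 (adjusted p = 0.0231). Its call was lost without control replicate 1 or 2, at adjusted p values of 0.0665 and 0.0722. NCED1, the 9-cis-epoxycarotenoid dioxygenase that catalyses the rate-limiting step of abscisic acid synthesis, read 9.11, 9.10 and 8.76 in control plants and 9.27, 8.88 and 9.19 in stressed plants. Those groups overlapped and differed by 0.12 ± 0.19 (adjusted p = 0.656). In susceptible plants the NCED1 response was -3.01, and the difference of responses was 3.13 (adjusted p = 4.09e-06). That of CrtR-b2 was -2.44, against the rise in tolerant plants, with a difference of 4.42 (adjusted p = 7.83e-05). In the fit with the integrity covariate, 1 of the 4 genes was called higher.

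Sugar genes moved in both directions. SnRK1 subunits, a sucrose synthase and a sucrose-phosphate synthase rose, and 1 starch synthesis gene and 1 hexose transporter gene fell. Of 13 named genes 6 were called higher and 2 lower, with a median difference of 0.80. The named genes as a whole also moved in both directions, with 26.7% called higher and 33.5% lower. SNF4 read 4.42, 3.76 and 4.83 in control plants and 9.33, 9.30 and 9.50 in stressed plants. SNF4 is a regulatory subunit of SnRK1, the plant relative of the yeast Snf1 kinase that responds to sugar shortage, and it rose from background by at least 3.58 (11.9-fold, adjusted p = 0.000845). GAL83, the anchoring subunit of the same kinase complex, was higher on both of its probe sets, by 1.12 and 1.14. sus3 read 8.84, 9.08 and 9.02 in control plants and 12.02, 12.09 and 11.97 in stressed plants. This sucrose synthase, which cleaves sucrose for use in sink tissue, was tightly grouped in both conditions and rose by 3.05 ± 0.14 (adjusted p = 0.00076), an 8.26-fold change. sps read 8.73, 8.59 and 8.27 in control plants and 10.67, 10.54 and 10.66 in stressed plants. The enzyme, sucrose-phosphate synthase, makes sucrose in leaf cells and rose by 2.09 ± 0.17 (adjusted p = 0.00134). Among the decreases, agpL3, a large subunit of the ADP-glucose pyrophosphorylase that commits carbon to starch, read 10.81, 10.95 and 10.91 in controls and 8.36, 8.86 and 8.63 under stress. It fell by 2.27 ± 0.18 (adjusted p = 0.00124). The hexose transporter ht1 read 9.40, 9.62 and 9.46 in controls and 5.98, 6.50 and 4.71 under stress and fell by 3.76 ± 0.47 (adjusted p = 0.00366), with the lowest stressed array at background. HT2, another hexose transporter gene, and the invertase genes Aiv-1, LIN7 and Wiv-1, named here with their values known, were not called (adjusted p = 0.103, 0.109, 0.0649 and 0.586). In susceptible plants the SNF4 response was -0.08, and the tolerant response exceeded it by at least 3.66 (adjusted p = 3.77e-06). For agpL3 and ht1 the susceptible responses were -1.82 and -3.62, and the differences from the tolerant responses did not pass the test (adjusted p = 0.0675 and 0.856). Under the integrity covariate, 3 genes of the list were called higher and 1 lower.

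Of 5 named genes of inositol and raffinose-type sugar metabolism, 1 alpha-galactosidase was called higher, 1 was called lower, and none of the 3 inositol genes was called. The shares among all named genes were 26.7% higher and 33.5% lower. SIP, an alkaline alpha-galactosidase of the seed imbibition protein family, read 5.66, 5.19 and 6.51 in controls and 7.90, 8.12 and 7.98 under stress, a rise of at least 2.07 (4.2-fold, adjusted p = 0.00783). LeaGal, another alpha-galactosidase, read 8.73, 9.07 and 9.09 and then 5.76, 6.40 and 5.49. It fell by 3.08 ± 0.28 (adjusted p = 0.00162), with stressed replicate 3 at background. Inps, the myo-inositol-1-phosphate synthase that opens inositol synthesis, read 11.03, 11.06 and 11.02 in controls and 10.95, 10.80 and 10.95 in stressed plants. Its difference of -0.13 ± 0.13 was not called (adjusted p = 0.487), while its susceptible response was -5.17. The difference of responses for Inps was 5.04 (adjusted p = 1.60e-08). INS-1P and IMP1 were not called either (adjusted p = 0.459 and 0.115). Without stressed replicate 2, 2 genes of the list were called lower, and with RNA integrity as a covariate 1 was called lower and none higher.

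Amino acid genes changed at steps that make and break down 4-aminobutyrate (GABA) and make asparagine and polyamines. Of 12 named genes 5 were called higher and 3 lower, with a median difference of 0.31, against 26.7% higher and 33.5% lower among all named genes. LOC544313, a glutamate decarboxylase homolog of the kind that makes GABA, read 6.85, 7.13 and 7.36 in controls and 10.34, 10.36 and 10.71 under stress. Every stressed array lay about 3 units above the controls, and the rise was 3.35 ± 0.20 (adjusted p = 0.000875). LeGAD2, a glutamate decarboxylase isoform, differed by -0.09 ± 0.13 and was not called (adjusted p = 0.65). GABA-TP2, a GABA transaminase that removes GABA, read 10.12, 10.12 and 9.98 in controls and 7.83, 6.09 and 7.05 under stress. It fell by 3.08 ± 0.44 (adjusted p = 0.00575), with stressed replicate 2 at background. Its isozyme gene GABA-TP1 was called in the opposite direction, higher by 1.47 ± 0.31 (adjusted p = 0.0183), and lost its call without stressed replicate 1 or 3, at up to 0.0567. AS1, an asparagine synthetase, read 7.71, 7.60 and 7.92 in controls and 9.94, 9.81 and 10.03 under stress and rose by 2.18 ± 0.16 (adjusted p = 0.00103). The glutamate dehydrogenase legdh1 read 11.19, 11.24 and 11.21 and then 9.25, 9.38 and 9.33, and fell by 1.89 ± 0.13 (adjusted p = 0.000994). ADC, the arginine decarboxylase that starts putrescine synthesis, read 11.28, 10.86 and 10.91 in controls and 8.98, 8.68 and 8.93 under stress and fell by 2.15 ± 0.18 (adjusted p = 0.00147). A second arginine decarboxylase gene, adc1, was higher by 1.12 ± 0.32 (adjusted p = 0.0468) and lost its call in 5 of 6 fits with 1 array left out, at 0.0816 to 0.114. LeGAD2, GABA-TP1 and adc1 lie outside the naming rule and were picked with their values known. PDH, proline dehydrogenase, which breaks proline down, gave opposite answers on its probe sets, with called differences of 2.36, 2.45 and -1.83, so no direction is given for the gene. Without stressed replicate 1 or 3, 3 genes of the list were called higher, and with RNA integrity as a covariate 3 were called higher and 2 lower.

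Ascorbate and superoxide enzymes did not move as a group. Among 9 named genes 2 were called higher and 3 lower, with a median of 0.19, against 26.7% higher and 33.5% lower among all named genes. DHAR1, a dehydroascorbate reductase that recycles ascorbate, read 6.15, 6.16 and 6.72 in controls and 8.24, 8.67 and 9.02 under stress and rose by 2.30 ± 0.28 (adjusted p = 0.00329). SODCP.2, a superoxide dismutase, read 11.38, 11.44 and 11.33 in controls and 9.27, 9.92 and 9.57 under stress and fell by 1.80 ± 0.20 (adjusted p = 0.00281). The cytosolic ascorbate peroxidase APX1 read 11.70, 11.75 and 11.70 and then 10.41, 10.24 and 10.31, and fell by 1.39 ± 0.13 (adjusted p = 0.00176), with its second probe set also called lower, at -2.44. The iron superoxide dismutase gene FESOD differed by -0.89 (adjusted p = 0.019), a call that was lost without any 1 of the 3 control arrays, at adjusted p values of 0.0537 to 0.0666. APX2 was called higher on 1 probe set, at 2.50, and lower on another, at -1.30, so no direction is given for it. In susceptible plants the FESOD response was 2.05, and the difference of responses was -2.94 (adjusted p = 3.16e-06). With RNA integrity as a covariate, 1 gene was called higher and 1 lower.

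More wound defence genes were called higher than lower. Of 10 named genes of the proteinase inhibitor and wound list, 6 were called higher and 3 lower, with a median of 0.98. Among all named genes, 26.7% were called higher and 33.5% lower. The 6 include LOC543954, named here with its values known. It was called higher on 1 probe set (0.98) and lower on another (-2.37, adjusted p = 0.019), so the direction of this gene is open. ER1, a proteinase inhibitor I that blocks the digestive proteases of insects, read 6.21, 5.31 and 5.75 in controls and 9.85, 9.58 and 9.92 under stress. Most control arrays were near background, and the rise was at least 3.83 (14.2-fold, adjusted p = 0.000994). lap2 read 9.26, 9.16 and 9.12 in control plants and 11.87, 11.87 and 11.86 in stressed plants. The leucine aminopeptidase lap2 had almost no spread in either group and rose by 2.68 ± 0.13 (adjusted p = 0.00076). Td, the threonine deaminase known in tomato for its induction by jasmonate, read 10.17, 10.60 and 10.07 in controls and 12.06, 11.92 and 12.11 under stress and rose by 1.75 ± 0.19 (adjusted p = 0.0026). Its response was larger in susceptible plants, at 4.15 (adjusted p of the difference = 1.66e-05). Of the 3 genes that were lower, LOC544223, a wound-inducible carboxypeptidase, read 8.46, 8.37 and 8.18 and then 6.42, 5.98 and 4.46, a difference of -1.89 or lower (adjusted p = 0.0136). The wound and stress protein gene LOC543932 and the proteinase inhibitor II gene cevi57 differed by -1.60 and -0.68 or lower. None of these 3 was called lower without control replicate 1 or without control replicate 2, where their adjusted p values ranged from 0.0503 to 0.124, whereas 5 and 6 genes were called higher in those fits. When RNA integrity was a covariate, 4 genes were called higher and none lower.

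Jasmonate genes divided. Of 9 named genes 3 were called higher and 3 lower, with a median of 0.35, against 26.7% higher and 33.5% lower among all named genes. Prosystemin, the precursor of the wound peptide systemin, read 11.43, 11.51 and 11.53 in controls and 12.43, 12.37 and 12.38 under stress, with no overlap, and rose by 0.91 ± 0.13 (adjusted p = 0.00532). Its second probe set rose by 1.15, and its susceptible response was -3.27, with a difference of responses of 4.18 (adjusted p = 4.02e-08). The gene loxD, for the lipoxygenase that feeds jasmonate synthesis in wounded tomato leaves, read 9.55, 9.49 and 9.56 and then 10.43, 10.46 and 10.44, and rose by 0.91 ± 0.12 (adjusted p = 0.00492). HPL, a hydroperoxide lyase that turns lipoxygenase products into leaf volatiles, read 11.19, 11.20 and 11.10 in controls and 8.22, 9.03 and 8.70 under stress and fell by 2.52 ± 0.24 (adjusted p = 0.00175). The 12-oxophytodienoate reductase gene opr, of a later step, read 7.56, 7.30 and 7.09 and then 5.61, 3.29 and 4.90, a difference of -1.12 or lower (adjusted p = 0.0215), and lost its call without any 1 control array, at up to 0.0723. LEJA1, titled jasmonic acid 1, read 8.35, 8.09 and 8.03 in controls and 6.46, 6.40 and 6.37 under stress and fell by 1.75 ± 0.15 (adjusted p = 0.00147). LEJA2, titled jasmonic acid 2, was higher by at least 1.63 (adjusted p = 0.024), with stressed values of 8.08, 8.12 and 6.11, and lost its call in 4 of 6 fits with 1 array left out, at 0.0692 to 0.0793. In the fit with the integrity covariate, none was called higher and 2 lower.

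A small set of proteases and lipid transfer protein genes rose. All 3 named members of the cysteine and aspartic protease list were called higher, by 0.71 to 1.92, whereas subtilisin-like proteases, held in the pathogenesis-related list, were among the genes called lower. The gene tdi-65, for a cysteine protease known for its induction by drought in tomato, read 8.90, 9.45 and 9.25 in controls and 11.06, 11.21 and 11.10 under stress and rose by 1.92 ± 0.19 (adjusted p = 0.00197). Both lipid transfer proteins, which carry lipids and are linked to cuticle formation, were called higher. The share called higher among all named genes was 26.7%. TSW12 read 9.20, 8.79 and 9.28 in control plants and 12.11, 12.15 and 12.18 in stressed plants. TSW12 rose by 3.06 ± 0.18 (adjusted p = 0.000845) on that probe set, while the other probe set of the same symbol differed by -0.20 and was not called. The gene ltpg2 read 10.73, 10.77 and 10.82 in controls and 12.48, 12.50 and 12.43 under stress and rose by 1.70 ± 0.13 (adjusted p = 0.00112). Further genes outside the lists were among the largest increases. The beta-galactosidase gene tEG3 read 7.42, 6.59 and 5.43 in controls and 9.73, 9.80 and 9.74 under stress. It rose by 3.28 ± 0.50 (adjusted p = 0.00684), with controls that spread over about 2 units and control replicate 3 at background. LOC543815, titled hypothetical, read 7.31, 6.29 and 6.31 and then 9.53, 9.24 and 9.90, and rose by 2.92 ± 0.35 (adjusted p = 0.00321), against 5.77 in susceptible plants (adjusted p of the difference = 0.000231). Under the integrity covariate, both lipid transfer protein genes and 1 of the 3 proteases were called higher.

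Transcription factors of the drought and defence families changed in both directions. Of 7 named DREB, WRKY and MYB genes 3 were called higher and 2 lower, with a median of -1.01. The shares among all named genes were 26.7% higher and 33.5% lower. DREB1, of the family that binds the dehydration responsive element, read 5.08, 4.83 and 5.01 in controls and 7.23, 6.89 and 6.92 under stress, a rise of at least 1.22 (2.32-fold, adjusted p = 0.00129). WRKY2 read 8.82, 8.57 and 8.28 and then 10.35, 10.66 and 10.40, rose by 1.92 ± 0.20 (adjusted p = 0.00227), and was higher on its second probe set by 1.39. The MYB gene THM6 read 9.86, 10.13 and 9.91 in controls and 8.50, 8.17 and 8.35 under stress and fell by 1.63 ± 0.16 (adjusted p = 0.00209). The calls of WRKYIIe-1 (1.32) and THM27 (-2.07) were lost in 4 and 5 of the 6 fits with 1 array left out, at adjusted p values of up to 0.0935 and 0.0929. With RNA integrity as a covariate, 1 gene was called higher and none lower.

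Ethylene genes were called in both directions. Of 21 named ethylene genes 7 were called higher, 2 lower and 12 not called, with a median of 0.07. Among all named genes, 26.7% were called higher and 33.5% lower, and 31.1% of all probe sets were called. Never-ripe, an ethylene receptor, read 9.11, 9.14 and 9.30 in controls and 10.80, 10.38 and 10.72 under stress and rose by 1.45 ± 0.17 (adjusted p = 0.00317). EIL3, a factor of the EIN3 family that carries the ethylene signal in the nucleus, read 9.11, 9.01 and 8.83 and then 10.92, 10.64 and 10.35, and rose by 1.65 ± 0.20 (adjusted p = 0.00321). Ethylene synthesis genes differed in direction. EFE, an ethylene-forming enzyme (ACC oxidase), read 9.36, 9.43 and 9.07 in controls and 6.15, 6.63 and 5.21 under stress. It fell by 3.29 ± 0.38 (adjusted p = 0.00302), with stressed replicate 3 at background. ACO1, another ACC oxidase, fell by 1.67 ± 0.27 (adjusted p = 0.00824). A further ACC oxidase gene, ACO6, outside the naming rule and chosen after its values were seen, was higher by 0.74 ± 0.18 (adjusted p = 0.0282), lost its call in 5 of 6 fits with 1 array left out, at 0.0596 to 0.077, and was not called on its other probe set (0.20). The ACC synthase genes ACS6, ACS7B and LE-ACS3 were not called. In susceptible plants the ACO1 response was 1.60, and the responses differed by -3.27 (adjusted p = 1.91e-05). Without stressed replicate 2, 4 ethylene genes were called lower, and with RNA integrity as a covariate none of the 21 was called in either direction.

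Of 16 auxin and gibberellin genes 4 were called higher and 2 lower, with a median of -0.03. For this list and the next 2, the shares among all named genes were 26.7% higher and 33.5% lower. IAA8, an auxin response repressor of the Aux/IAA family, read 6.81, 7.17 and 6.88 in controls and 9.40, 8.47 and 8.56 under stress and rose by 1.86 ± 0.29 (adjusted p = 0.0074). IAA9, of the same family, read 9.22, 9.52 and 9.07 and then 7.34, 7.47 and 7.32, and fell by 1.89 ± 0.17 (adjusted p = 0.00165). The gibberellin 20-oxidase gene 20ox-1, which makes active gibberellin precursors, read 9.28, 9.13 and 8.84 in controls and 7.19, 7.32 and 7.63 under stress and fell by 1.70 ± 0.20 (adjusted p = 0.00302). Without control replicate 2 or 3 or stressed replicate 1 or 2, 2 genes of the list were called higher, and 1 of the 4 in the full fit, IAA5, had both groups near background. All 5 light and clock genes differed upward, by 0.28 to 2.22, and 3 of them were called. CIP2b, a CONSTANS-interacting protein, read 10.26, 10.15 and 10.09 in controls and 12.43, 12.34 and 12.40 under stress and rose by 2.22 ± 0.13 (adjusted p = 0.000847). The blue light receptor gene CRY1A was higher by 0.56 (adjusted p = 0.0279) and lost its call whichever array was left out, at 0.0541 to 0.0923. Of 8 calcium and MAP kinase genes 2 were called higher and 1 lower. The calcium-dependent protein kinase gene cpk1 read 6.66, 7.29 and 7.43 in controls and 8.68, 8.75 and 8.63 under stress and rose by 1.56 ± 0.24 (adjusted p = 0.00671), and MAPK10, higher by 0.59 (adjusted p = 0.0196), lost its call without any 1 control array, at up to 0.0705. When RNA integrity was a covariate, the calls were 0 higher and 1 lower for auxin and gibberellin, 1 and 0 for light and clock, and 0 and 0 for calcium and MAP kinases.

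**Figure D3:**
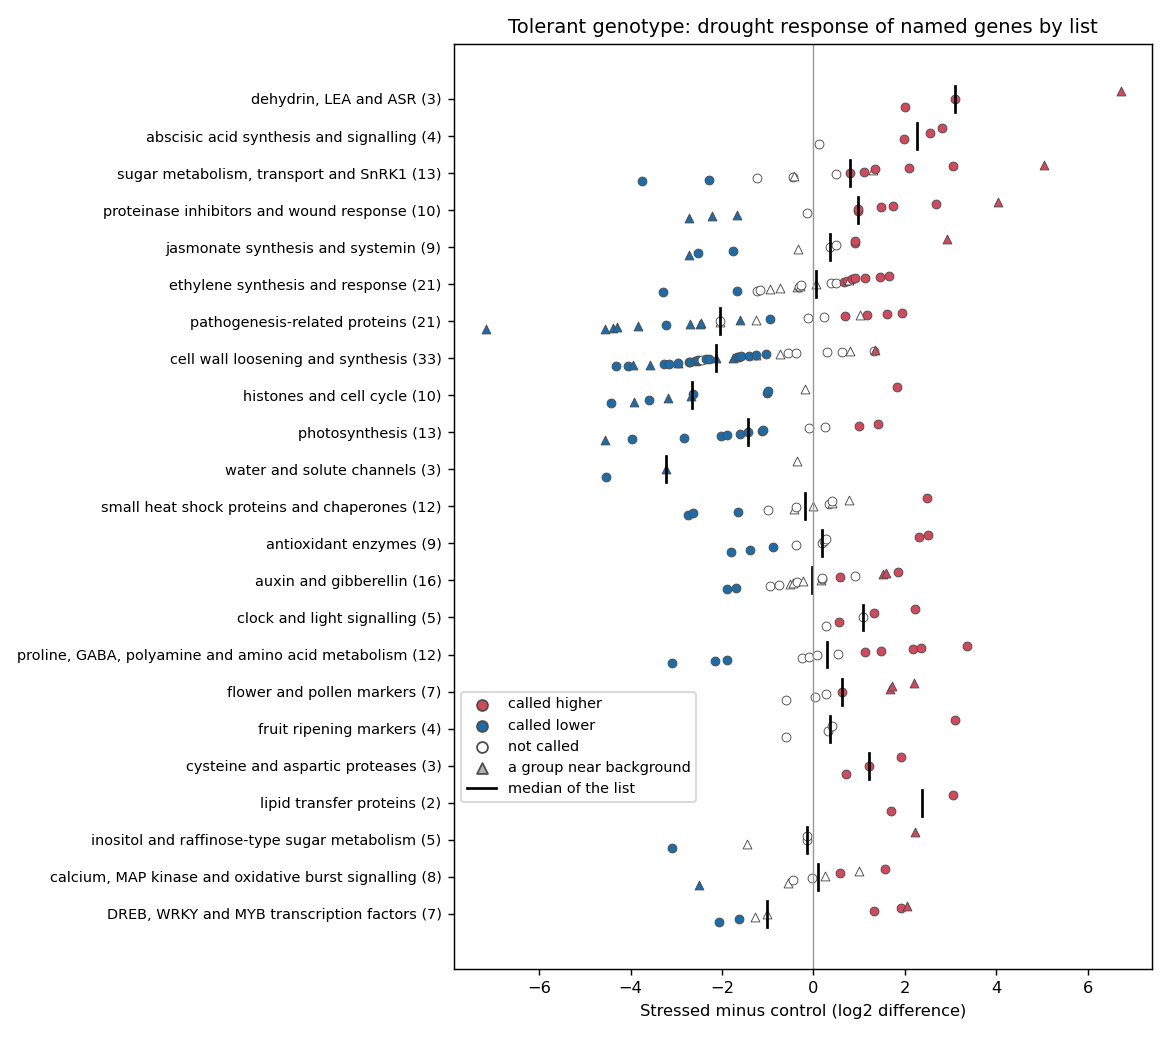
Stressed minus control differences (log2) in the tolerant genotype for every named gene of 23 lists, with the number of genes in parentheses. Red symbols were called higher, blue lower and white not called, triangles mark genes with at least 1 group near background whose plotted value is the fitted difference, and black bars are list medians. TAS14 lies furthest right. The dehydrin, LEA and ASR list has the highest median, a rank that depends on the ASR1 probe set chosen. Cell wall, histone, photosynthesis and channel genes lie mostly to the left.

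Both aquaporin genes fell. Of 3 named genes for water and solute channels 2 were called lower and none higher, against 33.5% lower and 26.7% higher among all named genes. The potassium channel gene LKT1 was not called (adjusted p = 0.644). LOC778315, titled similar to aquaporin, read 11.55, 11.44 and 11.52 in controls and 6.55, 7.14 and 7.23 under stress. All stressed arrays lay more than 4 units below the controls, and it fell by 4.53 ± 0.22 (adjusted p = 0.00076), a 23.1-fold change. LeTIP, of the aquaporin family that sits in the vacuole membrane, read 8.95, 9.18 and 8.94 and then 5.79, 5.93 and 5.69, a difference of -2.79 or lower (6.91-fold, adjusted p = 0.00076). Susceptible plants showed -1.11 and -0.22 for these genes, and both differences of responses were called (adjusted p = 3.87e-06 and 1.53e-06). Both genes were also called lower with RNA integrity as a covariate.

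Cell wall genes fell broadly. Of 33 named genes that loosen or build the wall, 23 were called lower and 1 higher, with a median of -2.13 and groups that did not overlap in 30. Among all 409 named genes, 33.5% were called lower and 71.9% had no overlap, against 15.4% and 48.4% of all probe sets. The gene ext encodes an endo-xyloglucan transferase, an enzyme that cuts and rejoins the xyloglucan that ties cellulose together. ext read 10.60, 10.56 and 10.63 in control plants and 6.07, 6.48 and 6.27 in stressed plants. It was tightly grouped in both conditions and fell by 4.32 ± 0.16 (adjusted p = 0.000617), a 20-fold change, with stressed replicate 3 at background. cellulase read 10.32, 10.23 and 10.39 in control plants and 6.23, 5.12 and 7.42 in stressed plants. This endo-1,4-beta-glucanase fell by 4.06 ± 0.57 (adjusted p = 0.00539), with stressed arrays that spread over more than 2 units and replicate 2 at background. The gene exp9, for an expansin that loosens the wall, read 9.31, 9.22 and 9.26 in controls and 5.54, 6.03 and 4.40 under stress, a difference of -3.07 or lower (8.41-fold, adjusted p = 0.00251). XTH16, a further xyloglucan enzyme, was called lower on both probe sets, at -2.29 and -3.09. Outside the list, LEXYL2, which encodes a beta-xylosidase, read 10.97, 11.14 and 11.09 and then 5.34, 6.05 and 4.90, a difference of -4.88 or lower (29.4-fold, adjusted p = 0.000779). LOC543698, a beta-mannosidase, read 11.73, 11.74 and 11.85 in controls and 7.24, 6.99 and 5.63 under stress. It fell by 5.15 ± 0.44 (adjusted p = 0.00147), with stressed replicate 3 at background. In the other direction, the beta-galactosidase gene tEG3, also outside the list and described above, was among the largest increases. Also outside the list and among the largest decreases, LOC543656 and LOC544001, both titled hypothetical, read 9.53, 9.65 and 9.52 and 9.89, 10.05 and 9.57 in controls. Their stressed values of 4.24, 5.78 and 4.26 and 4.56, 5.02 and 7.00 gave differences of -3.38 and -3.57 or lower (adjusted p = 0.00173 and 0.00669). The list gene called higher was XET4, a xyloglucan endotransglycosylase that read 5.26, 5.09 and 5.68 in controls and 6.65, 6.77 and 6.67 under stress, a rise of at least 0.90 (adjusted p = 0.00587). Without control replicate 3 or stressed replicate 2, 2 genes were called higher.

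The wall response was not uniformly deeper or shallower than in susceptible plants, since the tolerant response was the higher one for 13 of the 33 genes and the lower one for 10. The ext response of susceptible plants was -7.49 or lower, and the fitted tolerant response was the higher one (adjusted p = 1.19e-06). The stressed tolerant mean of ext, 6.27, lay close to the reporter 95th percentiles of those arrays, at 5.66, 6.14 and 6.78. No size is therefore given for that difference, and the part of background in it was not tested. For exp9 the susceptible response was -2.20, with the tolerant response the lower one (adjusted p of the difference = 0.0129). For cellulase, the susceptible response was -5.67 and the difference had an adjusted p of 0.0629. Cel1, another endo-1,4-beta-glucanase, read 7.37, 7.32 and 6.34 in controls and 7.43, 7.91 and 7.57 under stress in tolerant plants. These arrays differed by 0.63 ± 0.33 and were not called (adjusted p = 0.211), while the susceptible response was -4.78 or lower and the difference of responses at least 5.41 (adjusted p = 2.75e-06). In the fit with the integrity covariate, 7 of the 33 genes were called lower and none higher.

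Cell division genes fell together. Of 10 named histone and cell cycle genes 8 were called lower and 1 higher, with a median of -2.66. Among all named genes, 33.5% were called lower and 26.7% higher. LOC544081 read 11.13, 11.11 and 11.06 in control plants and 6.77, 7.07 and 6.20 in stressed plants. This histone H4 gene, which supplies the histone needed when DNA is copied, fell by 4.42 ± 0.25 (adjusted p = 0.000779), a 21.4-fold change. Its stressed replicate 3 lay at background. The gene cdkB2, for a plant cyclin-dependent kinase of the B type that acts at mitosis, read 9.89, 9.83 and 8.87 in controls and 6.12, 5.06 and 5.62 under stress, a difference of -3.18 or lower (9.08-fold, adjusted p = 0.00214). CycA1, an A-type cyclin, read 8.99, 9.45 and 9.81 and then 5.79, 6.33 and 5.34. It fell by 3.59 ± 0.34 (adjusted p = 0.00175), with stressed replicate 3 at background. The exception was LOC544142, a linker histone H1-like gene, which read 9.40, 9.43 and 9.49 in controls and 11.35, 11.41 and 11.02 under stress and rose by 1.82 ± 0.16 (adjusted p = 0.00159). In susceptible plants the responses were -4.77, -4.03 and -3.52 for the 3 genes that fell, and none of these differences of responses passed the test (adjusted p = 0.322, 0.873 and 0.903). The tolerant response was called higher for 3 of the 10 genes and lower for none. Under the integrity covariate, 2 genes were called lower and 1 higher.

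Most photosynthesis genes fell. Of 13 named genes 9 were called lower and 2 higher, with a median of -1.44, against 33.5% lower and 26.7% higher among all named genes. CAB5 read 11.97, 11.97 and 11.94 in control plants and 8.15, 8.21 and 7.63 in stressed plants. CAB5 encodes a chlorophyll a/b-binding protein of the light-harvesting antenna, and it fell by 3.96 ± 0.20 (adjusted p = 0.000779), a 15.6-fold change. CAB6A, another antenna protein, read 12.16, 12.17 and 12.19 in controls and 9.60, 8.99 and 9.41 under stress and fell by 2.84 ± 0.20 (adjusted p = 0.000998), with its second probe set called lower at -1.56. POR2, the light-dependent protochlorophyllide oxidoreductase of chlorophyll synthesis, read 10.57, 10.46 and 10.54 and then 7.31, 5.93 and 4.67, a difference of -3.78 or lower (13.8-fold, adjusted p = 0.00579). The 3 stressed arrays of POR2 spread over more than 2 units. The gene psbF, for a chloroplast-encoded subunit of photosystem II, rose instead, from 8.95, 9.39 and 9.07 to 10.22, 10.81 and 10.60, by 1.41 ± 0.22 (adjusted p = 0.00747), and its susceptible response was -1.82 (adjusted p of the difference = 1.35e-05). SEND33, a ferredoxin, read 11.25, 11.35 and 11.30 in controls and 12.30, 12.30 and 12.28 under stress and rose by 0.99 ± 0.13 (adjusted p = 0.00388). The susceptible response of CAB5 was -3.46, and the difference was not called (adjusted p = 0.0745), whereas the susceptible responses of CAB6A and POR2 were -0.41 and -0.38 (adjusted p of the differences = 1.75e-05 and 0.00113). The carbonic anhydrase gene ca3 read 6.65, 7.64 and 7.10 in controls and 8.29, 7.27 and 5.57 under stress, groups that overlapped (difference -0.09 ± 0.72, adjusted p = 0.94), while its susceptible response was 6.50 and the difference of responses -6.59 (adjusted p = 0.000155). With RNA integrity as a covariate, 5 genes were called lower and none higher.

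Pathogenesis-related genes fell in the main, several of them to background. Of 21 named genes 11 were called lower and 4 higher, with a median of -2.05, against 33.5% lower and 26.7% higher among all named genes. The list holds subtilisin-like and papain-like proteases beside the classical PR proteins. PR1b1, a PR-1 protein secreted into the leaf apoplast upon infection, read 10.74, 10.85 and 10.95 in controls and 4.94, 3.38 and 2.73 under stress. It was far above background in all controls and within it in all stressed arrays, a difference of -4.66 or lower (25.2-fold, adjusted p = 0.00126). P4, another PR-1 protein, read 9.02, 8.80 and 8.81 and then 4.18, 5.02 and 3.76, a difference of -2.68 or lower (6.43-fold, adjusted p = 0.00112). LOC543986, a beta-1,3-glucanase that cuts fungal wall polymers, read 8.57, 8.60 and 9.03 in controls and 3.92, 4.33 and 6.44 under stress, a difference of -2.54 or lower (5.82-fold, adjusted p = 0.0107). Among the subtilisin-like proteases, sbt3 and sbt4a differed by -3.40 and -3.77 or lower (adjusted p = 0.00381 and 0.00168), and a further probe set of sbt4a was not called. P69B, a subtilase induced by pathogens in tomato, read 6.95, 7.08 and 6.44 and then 4.11, 4.78 and 4.22, a difference of -0.63 or lower (adjusted p = 0.00263). The apoplastic protease gene pip1 read 8.96, 8.72 and 7.49 in controls and 7.28, 6.46 and 5.30 under stress, a difference of -2.04 ± 0.63 that did not pass the test (adjusted p = 0.0589).

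A few members of the list rose. CHI17, a chitinase, read 8.60, 8.54 and 8.75 in controls and 10.49, 10.56 and 10.69 under stress and rose by 1.95 ± 0.14 (adjusted p = 0.00109). CHI3, a second chitinase, read 11.18, 10.84 and 11.01 and then 12.19, 12.17 and 12.18, and rose by 1.17 ± 0.15 (adjusted p = 0.00394). PR-P2 rose by 1.60 ± 0.19 (adjusted p = 0.0031) on 1 probe set and by 1.37 on another, while another differed by -0.33 and was not called. When RNA integrity was a covariate, 5 genes of the list were called lower and 1 higher.

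Several of these defence genes had responses of the opposite sign in susceptible plants, where the median of the list was 2.32. The susceptible responses of PR1b1 and P4 were at least 5.77 and 4.66, and the differences of responses were -10.43 and -7.34 or lower (adjusted p = 6.49e-06 and 7.73e-08). For LOC543986 and P69B they were at least 1.30 and 3.64, and the differences were -3.85 and -4.27 or lower (adjusted p = 0.000134 and 4.52e-07). The susceptible response of pip1 was 6.23, with a difference of -8.28 (adjusted p = 1.44e-05). For CHI3 the susceptible response was 5.91, with a difference of -4.74 (adjusted p = 7.73e-08), and for CHI17 the susceptible response was 1.84 and the difference had an adjusted p of 0.617. The tolerant response was called lower for 15 of the 21 genes and higher for 1. The authors' tables had selected the named genes for such differences under drought or heat.

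**Figure D4:**
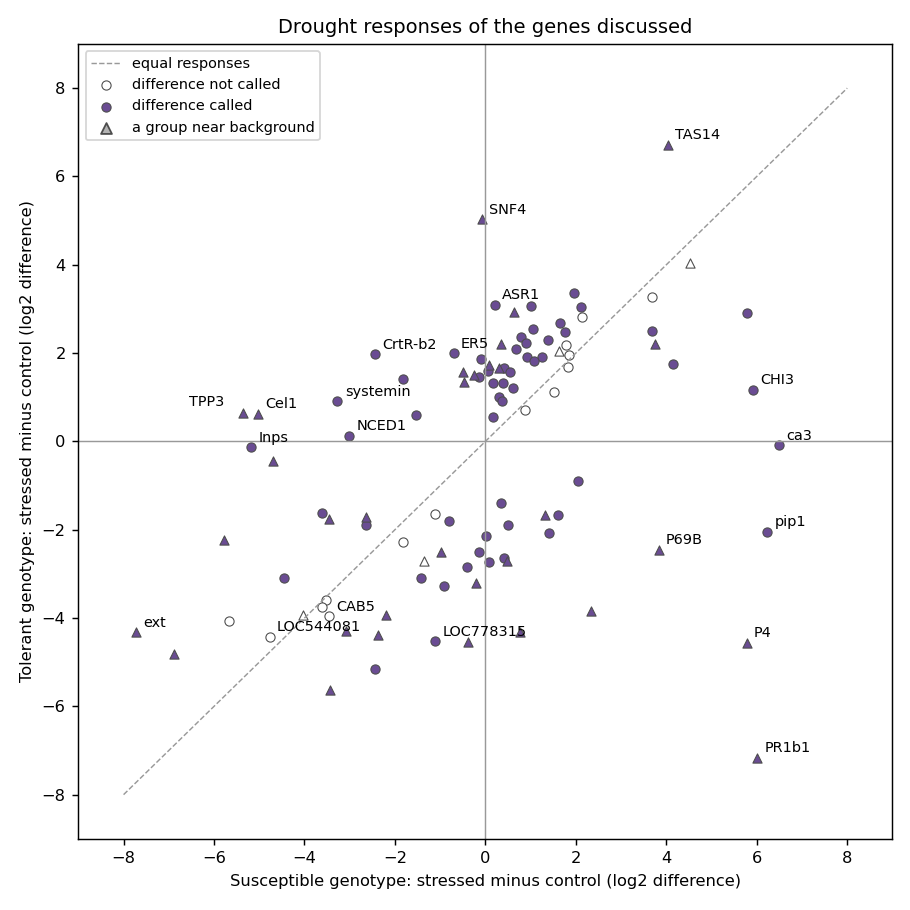
Drought response (stressed minus control, log2) of the 106 genes given by the naming rule, in susceptible plants (horizontal axis) and tolerant plants (vertical axis). Filled symbols had a called difference of responses, triangles mark genes with a group near background whose plotted value is the fitted difference, and the dashed line marks equal responses. PR1b1 and P4 lie at the lower right, high in susceptible and low in tolerant plants, and LOC544081 and CAB5 lie close to the line.

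Of 12 named chaperone genes 1 was called higher and 3 lower, with a median of -0.19. That share of calls is near the 31.1% of all probe sets but below that of the named genes, 26.7% higher and 33.5% lower. TFHS1, titled heat shock protein, read 10.29, 10.10 and 10.37 in controls and 12.79, 12.75 and 12.66 under stress and rose by 2.48 ± 0.14 (adjusted p = 0.000845). The gene leCpn21, titled chaperonin 21 precursor, read 11.79, 11.86 and 11.75 and then 9.24, 9.10 and 9.16, and fell by 2.63 ± 0.13 (adjusted p = 0.000774). LeHsp90-1, a cytosolic type of HSP90 chaperone, read 11.33, 11.38 and 11.40 in controls and 9.04, 8.87 and 7.98 under stress and fell by 2.74 ± 0.30 (adjusted p = 0.00267). BiP/grp78, the HSP70 of the endoplasmic reticulum, fell by 1.64 ± 0.19 (adjusted p = 0.0031). Both leCpn21 and LeHsp90-1 had susceptible responses of 0.40 and 0.08 (adjusted p of the differences = 1.41e-07 and 0.000107). In the fit with the integrity covariate, 1 gene was called higher and 2 lower.

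The sample was checked for genes of other organs. The antenna genes CAB5 and CAB6A, which mark green leaf tissue, read between 11.94 and 12.19 in all controls, far above background. Of 7 flower and pollen markers 4 were called higher, against 26.7% of all named genes, and 2 of the 4 had both groups near background. LOC543555, an APETALA3 homolog of petal and stamen identity, read 4.15, 5.89 and 5.75 in controls and 8.09, 7.37 and 6.93 under stress, a rise of at least 1.55 (adjusted p = 0.0337) that lost its call in 5 of 6 fits with 1 array left out, at up to 0.092. LeAP1 and LOC543885, both MADS-box genes of flowers, lay near background in both groups. TPP3, titled a flower-specific gamma-thionin-like protein, lay far above background throughout, with 11.44, 11.47 and 11.39 in controls and 12.07, 12.05 and 12.08 under stress, and was higher by 0.63 ± 0.12 (adjusted p = 0.015). That call was lost without any 1 control array, at 0.0507 to 0.0563. In susceptible plants the TPP3 response was -4.75 or lower, and the difference of responses was at least 5.38 (adjusted p = 1.60e-08). The flower markers TDR6 and TDR3, named here with their values known, also lay above background in both groups. Their control and stressed means were 9.10 and 9.37 for TDR6 and 7.83 and 7.86 for TDR3, and neither was called (adjusted p = 0.284 and 0.924). Without any 1 control array, or without stressed replicate 1 or 2, 1 or 2 flower markers were called higher, and none with RNA integrity as a covariate. Of 4 fruit ripening markers 1 was called higher, which was ASR1, and no named gene matched the root, trichome or guard cell lists. The part of these markers in the other results was not tested.

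Some of the strongest responses belonged to probe sets for which no single gene name was available. The 2 with the largest fitted increases among them lay near background in the controls. The first read 3.99, 4.12 and 5.10 in controls and 9.68, 9.70 and 9.51 under stress, a rise of at least 3.83 (adjusted p = 0.000918). The second read 5.83, 3.49 and 5.57 in controls and 10.10, 10.18 and 10.21 under stress, a rise of at least 4.33 (adjusted p = 0.00347). Both had still larger susceptible responses, at least 7.33 and 6.54. In the other direction, the probe set with the largest fitted decrease read 11.70, 11.77 and 11.62 in controls and 4.68, 5.80 and 3.85 under stress, a difference of -5.51 or lower (adjusted p = 0.00103). The next read 11.46, 11.68 and 11.52 and then 4.87, 4.80 and 4.52, a difference of -5.36 or lower (adjusted p = 0.000149). Their susceptible responses were -6.82 and -5.53, and only the latter differed from the tolerant response at an adjusted p under 0.05 (0.896 and 0.00014).

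Several probe sets of a gene did not always answer alike. Of 40 named genes with more than 1 probe set, 11 had all of them called in 1 direction, 11 had none called, and 4 had calls in both directions. Those 4 genes, picked out after their values were seen, were APX2, PDH, LOC543954 (-2.37 and 0.98) and TPSI1, whose probe set called higher lay near background in both groups. The authors' deposited table for drought lists 2222 probe sets, of which its tolerant fold change is at least 2-fold up for 665 and down for 820. Its direction matched that of the group means used here for 2151 of them, and 1428 were called here, although single values differed by up to 4.12 on the log2 scale.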

How the data were processed

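Leaf RNA of the tolerant genotype, from 3 control and 3 stressed samples, was compared on Affymetrix arrays, with 6 susceptible arrays for the difference of responses. The deposited log2 values per probe set came from the authors' RMA 1.0 summary in Affymetrix Expression Console, which the submitters' processing notes record, and were used without further normalization. Fold changes in the authors' deposited tables are linear ratios of stressed to control means, per the file headers, and served for gene names and 1 comparison of directions. Another 12 columns of per-sample values, of the heat experiment, were not used.

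Differences were fitted with limma 3.58.1 in R 4.3.3 (lmFit and eBayes), with Benjamini-Hochberg adjustment over 10038 probe sets and calls at an adjusted p under 0.05. The tolerant response used its own 6 arrays, and the difference of responses used 12 arrays with 4 group means. The procedure was tested on simulated data. A bound was given where 2 or more of the 3 arrays in the dimmer group did not exceed their reporter percentile of 95, and it combines both responses where it is for a difference of responses.

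Exactly 1 symbol was paired with 457 probe sets (409 genes), and 9581 had none or several. The RefSeq gene table updated 67 of 152 locus symbols. Probe sets with the suffix _a_at can match related transcripts. Among them are those of PDH, systemin, LOC778315 and Aiv-1 and a further probe set each of WRKY2 and PR-P2. The genes given come from the 12 largest increases and 12 largest decreases without overlap, up to 3 called genes in each direction per list, the 6 largest differences of responses in each direction, and TAS14, ASR1, NCED1 and PR1b1. Of 25 lists defined by symbols and titles, 23 found a gene. The genes, lists and comparison were chosen with earlier results of these data known. Alternatives covered normalization, filtering, array weights, a replicate block, the RNA integrity covariate and leaving out each array.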

Additional observations from a re-analysis of the deposited data

Results flagged for a closer look

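The difference between the tolerant and the susceptible drought response was tested as an interaction with limma on 12 arrays, and 3760 probe sets were called. Fitted differences of responses are given for 12 genes, with the bound where a group lay near background. In the upward direction, TPP3 (flower-specific gamma-thionin-like) had 5.99 (at least 5.38), Cel1 (endo-1,4-beta-glucanase) 5.65 (at least 5.41), SNF4 (SnRK1 subunit) 5.12 (at least 3.66), Inps (inositol phosphate synthase) 5.04 and CrtR-b2 (beta-carotene hydroxylase) 4.42. IAA11 (Aux/IAA repressor) had a fitted 4.26, but its tolerant arrays lay near background in both groups, so no difference is claimed for it. In the downward direction, PR1b1 (PR-1) had -13.17 (-10.43 or lower), P4 (PR-1) -10.34 (-7.34 or lower), pip1 (apoplastic protease) -8.28, ca3 (carbonic anhydrase) -6.59, P69B (subtilase) -6.29 (-4.27 or lower) and LOC543986 (beta-1,3-glucanase) -6.16 (-3.85 or lower). The named genes had been selected by the authors' drought and heat tables for such differences, on the drought or the heat arrays.

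The bioB spike-in, which carries no tomato RNA, was 0.59 higher on the log2 scale in stressed than in control tolerant arrays, with no overlap between the 3 and 3 arrays. The bioB means of the susceptible groups were 6.08 and 6.37, far below the tolerant means of 10.89 and 11.48, so the arrays of both genotypes stood apart on this control. The part of bioB in the drought results was not tested.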

How the results depend on the processing

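The count of 3125 called probe sets became 5104 when all 12 drought arrays shared 1 estimate of spread, which adds the less variable susceptible replicates, and 568 with RNA integrity as a covariate, of which 557 were among the 3125. That covariate did not overlap between control and stressed arrays, so it takes up part of the group difference. Leaving out 1 array gave 2042 (without control replicate 2) to 2691 calls (without stressed replicate 3). Other settings gave 2107 to 3731. With the replicate number as a block, 2107 probe sets were called for the tolerant response and 3581 for the difference of responses. Deviations of same-numbered arrays from their group means correlated at 0.051, -0.02 and 0.024. With 3 arrays per group, that check cannot tell whether same-numbered samples were grown or handled together, so pairing was not settled. The count of 3760 differences of responses ranged from 2533 (difference of at least 1) to 3887, and from 3113 to 4208 with 1 array left out. It was 3413 with 1 weight per genotype. Of 106 genes given by the naming rule, 100 were called. All 100 kept their sign in every alternative run, 80 kept their call in every one but the integrity covariate, 44 kept it there, 84 kept it whichever array was left out, and 89 kept it under the block. The 2 uncalled genes ca3 and IAA11 changed sign. The ca3 difference was 0.197 with array weights, 0.62 with the integrity covariate and -0.709 to 0.648 with 1 array left out, and that of IAA11 was 0.41 with the integrity covariate and -1.31 to 0.119 with 1 array left out; the cause was not tested. Taking the brightest probe set of a gene, an alternative chosen after seeing the data, moved antioxidant and lipid transfer genes called higher from 2 to 1 each. With the 75th percentile or the maximum of the reporters in place of the 95th, the bound of PR1b1 was -5.74 or -2.41, and that of TAS14 was at least 3.54 with the maximum. Signal near background limits 523 of the calls to bounds.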
